A study of Mus musculus with 16 samples.

Results

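Meiotic prophase genes encode the proteins that pair, hold and recombine homologous chromosomes before the oocyte arrests around birth. A list of 30 such genes was taken: the synaptonemal complex, the chromosome axis, meiotic cohesin, and the factors of break formation, strand exchange and crossing over, with Stra8 as the gene of entry into meiosis. They were looked up by name in the expression table of 25965 genes. Of these members, 29 were found under their symbol and 1, Meiob, under the older symbol 4930528F23Rik. The oocytes were wild-type, of strain C57BL/6 in the labels and C57BL/6Babr in the study's methods, and were sorted by diameter into 4 classes of pools. Those of 10–30 μm came from mice of postnatal days 5–7, those of 40–45 μm from days 7–12, those of 50–55 μm from days 9–14 and those of 60–65 μm from days 13–16. Fully grown germinal vesicle (GV) oocytes came from day 20. RNA-seq was done on 2 libraries (A and B) per size class and is given as 1 column for GV oocytes. DNA methylation was measured by reduced representation bisulphite sequencing (RRBS, which reads CpG-rich fragments) in 2 libraries for each of the 3 larger classes, and by post-bisulphite adapter tagging (PBAT, which reads the whole genome) in 1 library at 60–65 μm. Nothing states that A and B came from separate animals, so p-values measure the spread between these libraries, which may be technical.

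In a prophase nucleus, cohesin rings and HORMA-domain proteins build an axis along each chromosome, and the synaptonemal complex zips the homologous axes together. SPO11 cuts the DNA, DMC1 drives the search for the homologue, and MutS and MutL homologues turn some of the joints into crossovers. In mice this is over around birth, and a growing oocyte rests in the dictyate stage, holding its crossovers and cohesin until meiosis resumes.

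Growing oocytes still carried RNA of many members, and much of it became scarcer as they grew. The mean level was at least 1 RPKM (reads per kilobase of exon, scaled to the size of the library) for 18 members at 10–30 μm and for 13 at 60–65 μm. The share of all genes at that level was not counted. The summed level of all 30 members was 209 and 181 RPKM in the 10–30 μm libraries, 135 and 118 at 40–45 μm, 105 and 101 at 50–55 μm, 88.1 and 98.8 at 60–65 μm and 84.4 in GV oocytes. From 10–30 to 60–65 μm, 13 of the 20 members tested were lower and 1 was higher, where 31.5% of all 10518 genes tested were lower and 31.8% higher (limma, adjusted p under 0.05). The other 10 members stayed below the minimum, which was 0.5 RPKM in 2 or more of the 8 growing-oocyte libraries. Of the 13 lower members, Hormad1, Prdm9 and Tex11 reached it only through the 10–30 and 40–45 μm libraries. Their entry into the test thus depended on the classes where they were high. Without any minimum, both 60–65 μm libraries lay below both 10–30 μm libraries for 22 of the 30 members and above both for 4, against 35.4% and 33.4% of the 20052 genes detected in growing oocytes. RPKM is a share of the library, so less RNA of a gene and more RNA of others cannot be told apart, and neither can fewer oocytes with the RNA and less of it per oocyte.

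Promoter windows are printed for 6 members at the extremes of RNA change or of start-region methylation. Each window runs from 250 bases before to 50 bases after the start in RefSeq (build GRCm38.p6), on the gene's strand, with every CpG in capitals. Syce1 (chr7:140787805-140788104, minus strand) and Smc1b (chr15:85131908-85132207, minus) had the largest falls in RNA among the 20 members tested with limma on log2(RPKM + 0.1), and Msh4 (chr3:153904842-153905141, minus) the only rise called there. Sycp1 (chr3:102936051-102936350, minus) had the highest value in RRBS, Hormad2 (chr11:4441033-4441332, minus) shared the highest in PBAT with Msh4, and Mlh3 (chr12:85270542-85270841, minus) had 0%.
Syce1: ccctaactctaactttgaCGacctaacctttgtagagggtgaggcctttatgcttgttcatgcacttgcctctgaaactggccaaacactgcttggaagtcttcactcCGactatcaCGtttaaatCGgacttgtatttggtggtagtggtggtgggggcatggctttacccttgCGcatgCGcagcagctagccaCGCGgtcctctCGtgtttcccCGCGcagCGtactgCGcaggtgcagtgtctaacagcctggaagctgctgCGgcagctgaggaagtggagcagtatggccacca
Smc1b: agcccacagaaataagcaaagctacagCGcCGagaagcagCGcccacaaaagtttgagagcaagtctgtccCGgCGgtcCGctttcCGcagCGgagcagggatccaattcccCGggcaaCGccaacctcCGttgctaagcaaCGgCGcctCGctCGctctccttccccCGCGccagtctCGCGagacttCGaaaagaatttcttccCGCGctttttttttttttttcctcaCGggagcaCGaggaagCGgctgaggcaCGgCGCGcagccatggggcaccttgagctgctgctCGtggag
Sycp1: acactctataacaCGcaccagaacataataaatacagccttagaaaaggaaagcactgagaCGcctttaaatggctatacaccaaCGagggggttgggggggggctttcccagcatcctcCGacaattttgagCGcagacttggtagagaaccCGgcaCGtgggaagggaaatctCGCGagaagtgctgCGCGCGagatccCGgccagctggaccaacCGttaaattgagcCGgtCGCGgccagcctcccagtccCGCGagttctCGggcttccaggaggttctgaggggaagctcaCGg
Msh4: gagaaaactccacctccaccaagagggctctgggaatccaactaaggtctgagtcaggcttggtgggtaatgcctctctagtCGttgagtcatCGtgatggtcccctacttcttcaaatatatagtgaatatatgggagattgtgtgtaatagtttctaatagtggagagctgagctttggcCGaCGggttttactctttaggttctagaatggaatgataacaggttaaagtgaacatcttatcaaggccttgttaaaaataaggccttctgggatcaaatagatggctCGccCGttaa
Hormad2: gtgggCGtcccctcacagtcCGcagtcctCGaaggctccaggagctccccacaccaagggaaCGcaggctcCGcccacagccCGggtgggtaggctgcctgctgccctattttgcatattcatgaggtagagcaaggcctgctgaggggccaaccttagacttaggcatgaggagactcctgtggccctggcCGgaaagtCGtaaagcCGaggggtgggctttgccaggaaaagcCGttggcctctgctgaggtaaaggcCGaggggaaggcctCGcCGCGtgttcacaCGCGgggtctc
Mlh3: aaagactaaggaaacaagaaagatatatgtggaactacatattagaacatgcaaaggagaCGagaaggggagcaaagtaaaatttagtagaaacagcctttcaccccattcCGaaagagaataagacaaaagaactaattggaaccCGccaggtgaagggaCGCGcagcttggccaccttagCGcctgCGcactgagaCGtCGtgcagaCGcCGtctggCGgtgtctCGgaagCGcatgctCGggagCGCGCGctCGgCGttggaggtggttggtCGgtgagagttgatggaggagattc
The 6 windows held 14, 29, 21, 6, 16 and 21 CpGs in the order printed. RefSeq windows were found for 26 members, with a median of 18 CpGs against 7 in all 32851 windows, and from 2 CpGs in Rad21l to 34 in Trip13. The window of Msh4 lies 1247 bp from the start that the expression table gives, and no methylation value below refers to it: none of its cytosines had the minimum of 5 reads in any library, and the Msh4 values are those around the table's start.

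Of the transverse filament and lateral elements of the synaptonemal complex, which form its rungs and rails, Sycp1 and Sycp3 fell and Sycp2 did not pass the test. Sycp1, the transverse filament, was at 10.1 and 9.56 RPKM at 10–30 μm, 5.40 and 2.96 at 40–45 μm, 2.94 and 2.80 at 50–55 μm, 1.69 and 2.18 at 60–65 μm and 1.25 in GV oocytes. It fell by 2.29 ± 0.26 on the log2 scale (SE; limma adjusted p = 0.000123) from the smallest to the largest class, a 4.90-fold difference, and the libraries of those classes did not overlap. Sycp3, a lateral element protein, stood at 43.1 and 31.7 RPKM at 10–30 μm, 20 and 14.8 at 40–45 μm, 8.57 and 8.08 at 50–55 μm, 5.24 and 6.86 at 60–65 μm and 3.72 in GV oocytes. That was a fall of 6.06-fold (limma adjusted p = 2.99e-05), and each class lay wholly below the class before it. Its partner in the lateral element, Sycp2, had 4.55 and 4.11 RPKM at 10–30 μm, 6.07 and 4.01 at 40–45 μm, 6.51 and 6.00 at 50–55 μm, 5.38 and 6.51 at 60–65 μm and 5.97 in GV oocytes. Its change did not pass the test (log2 change 0.45 ± 0.20; limma adjusted p = 0.0833). So at 10–30 μm Sycp3 was far above Sycp2, and at 60–65 μm their mean levels were 6.05 and 5.95 RPKM and their libraries overlapped. The Sycp3 gene shares 13668 bp with Chpt1 on the opposite strand, which was below 0.5 RPKM on average in both end classes.

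The central element joins the filaments in the middle, and its members also differed. Syce1 had 6.13 and 4.48 RPKM at 10–30 μm, 1.62 and 1.98 at 40–45 μm, 0.954 and 1.03 at 50–55 μm, 0.507 and 0.628 at 60–65 μm and 0.348 in GV oocytes. This was the largest fall of the 20 members that reached the minimum, by 3.0 ± 0.18 on the log2 scale or 7.98-fold (limma adjusted p = 8.29e-06). Syce2 had the highest class mean of all members in every class, although Sycp3 was above it in the 10–30 μm A library. It was at 42.2 and 39.9 RPKM at 10–30 μm, 40.5 and 38.2 at 40–45 μm, 37.3 and 36.5 at 50–55 μm, 37.0 and 39.0 at 60–65 μm and 37.0 in GV oocytes. No change was called (log2 change -0.11 ± 0.11; limma adjusted p = 0.407), and all 9 values lay within 36.5 and 42.2 RPKM. Syce2 overlaps Gcdh on the opposite strand by 1829 bp, a gene with means of 3.17 and 2.56 RPKM in the end classes. Tex12, whose protein binds SYCE2, had 8.11 and 7.28 RPKM at 10–30 μm, 5.83 and 4.29 at 40–45 μm, 4.55 and 3.73 at 50–55 μm, 3.56 and 3.97 at 60–65 μm and 3.45 in GV oocytes. It fell 2.01-fold (limma adjusted p = 0.00141), so the level of Syce2 was 5.34 times that of Tex12 at 10–30 μm and 10.1 times at 60–65 μm. Syce3 did not reach the minimum, with 0.363 and 0.307 RPKM at 10–30 μm and 0.0515 and 0.120 at 60–65 μm.

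**Figure D1:**
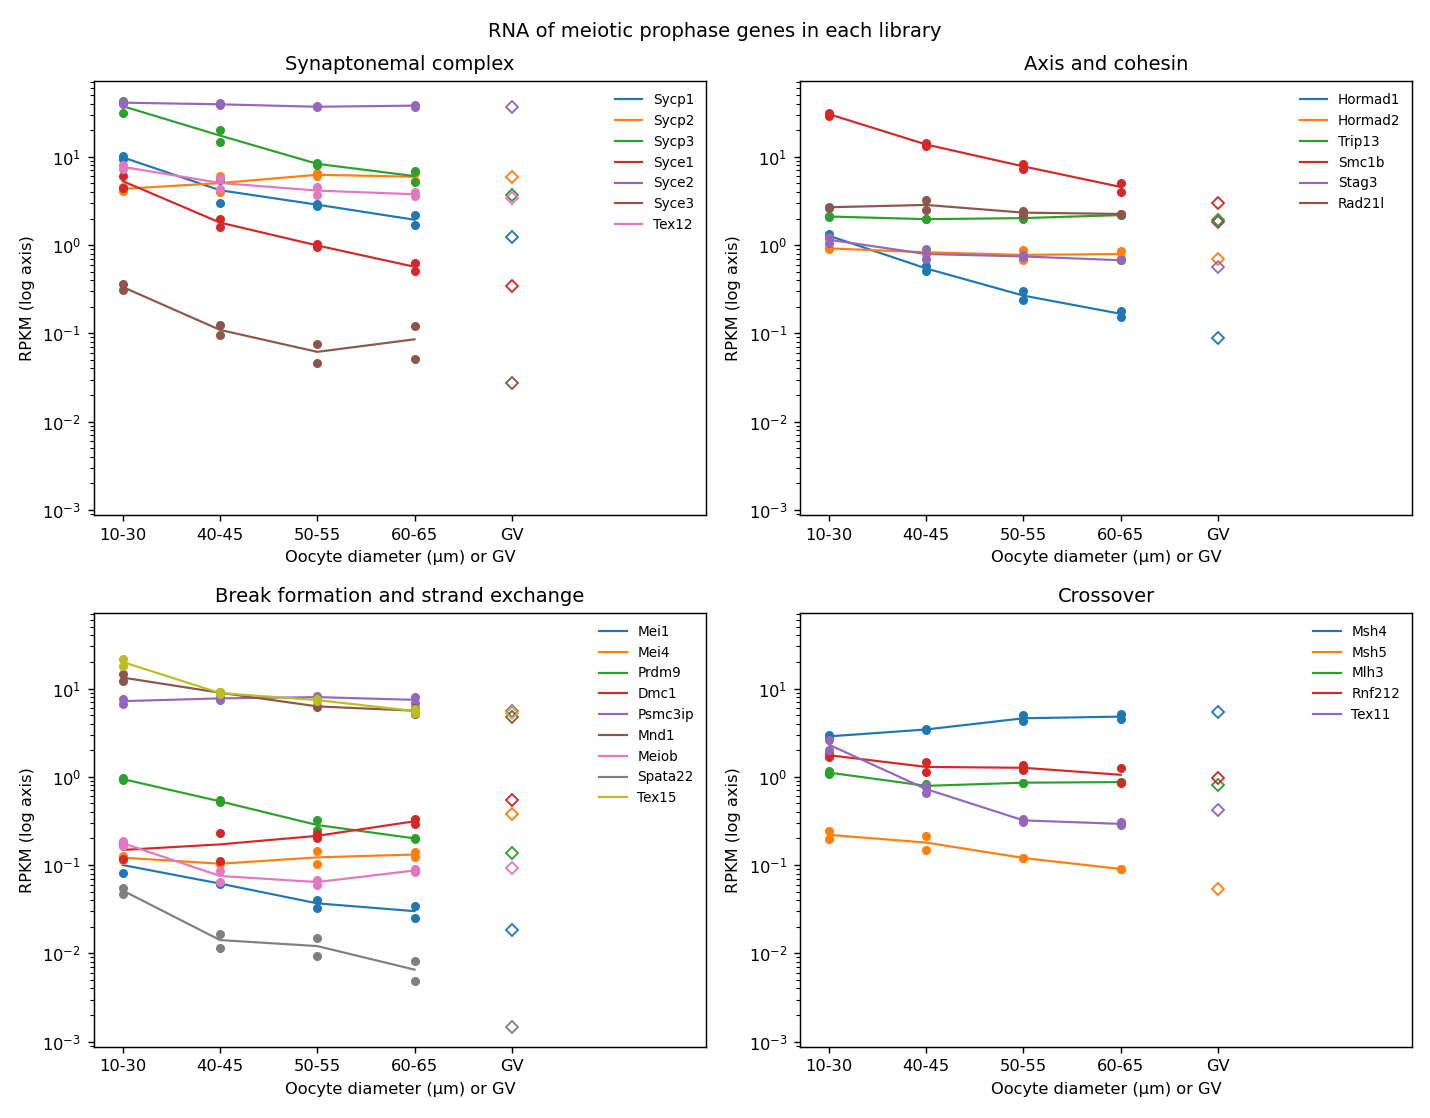
RPKM (log axis) of 27 members in each size class (diameter in μm) and in GV oocytes; points are single libraries, lines join class means, open diamonds are the 1 GV column. Rec8, Spo11 and Stra8, which were at 0 in at least 1 library, are left out. Sycp3, Smc1b, Syce1 and Tex11 go down across the classes, while Syce2, Trip13 and Psmc3ip run level and Msh4 goes up.

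HORMAD1 and HORMAD2 coat the axis of unsynapsed chromosomes, and TRIP13 is the ATPase that takes them off. Hormad1 RNA was 1.34 and 1.21 RPKM at 10–30 μm, 0.577 and 0.509 at 40–45 μm, 0.236 and 0.299 at 50–55 μm, 0.154 and 0.179 at 60–65 μm and 0.0875 in GV oocytes. It fell 5.12-fold (limma adjusted p = 1.04e-05), each class wholly below the one before. Hormad2, by contrast, ranged from 0.674 to 0.925 RPKM over the 8 libraries of growing oocytes (log2 change -0.19 ± 0.15; limma adjusted p = 0.292). Trip13 read 2.15 and 2.06 RPKM at 10–30 μm, 1.95 and 1.98 at 40–45 μm, 2.08 and 1.96 at 50–55 μm, 2.20 and 2.18 at 60–65 μm and 1.92 in GV oocytes (log2 change 0.06 ± 0.10; limma adjusted p = 0.625). The level of Hormad1 was above that of Hormad2 in both 10–30 μm libraries and below it in all others.

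Meiotic cohesin replaces general subunits by SMC1B, STAG3 and the kleisins REC8 and RAD21L. Smc1b started at 31.7 and 29.2 RPKM at 10–30 μm and then read 14.4 and 13.1 at 40–45 μm, 7.29 and 8.27 at 50–55 μm, 4.01 and 5.10 at 60–65 μm and 3.03 in GV oocytes. It fell by 2.72 ± 0.15 on the log2 scale, or 6.57-fold (limma adjusted p = 6.85e-06), and no 2 classes overlapped. Stag3 fell less, 1.60-fold (limma adjusted p = 0.0016), with 1.06 and 1.24 RPKM at 10–30 μm, 0.691 and 0.893 at 40–45 μm, 0.762 and 0.724 at 50–55 μm, 0.675 and 0.672 at 60–65 μm and 0.572 in GV oocytes. Rad21l did not pass the test (log2 change -0.24 ± 0.14; limma adjusted p = 0.175), with 2.71 and 2.66 RPKM at 10–30 μm, 3.20 and 2.50 at 40–45 μm, 2.46 and 2.21 at 50–55 μm, 2.24 and 2.26 at 60–65 μm and 1.83 in GV oocytes. Of the kleisins, Rec8 was close to undetected: 0 to 3 reads in each of the 9 libraries, at most 0.00571 RPKM. No protein was measured here.

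SPO11, MEI1 and MEI4 serve to make the breaks, and PRDM9 marks where they fall by methylating histones. Only Prdm9 reached the minimum. Its RNA was 0.965 and 0.920 RPKM at 10–30 μm, 0.515 and 0.539 at 40–45 μm, 0.247 and 0.321 at 50–55 μm, 0.203 and 0.198 at 60–65 μm and 0.138 in GV oocytes, a fall of 3.44-fold (limma adjusted p = 1.96e-05) with no overlap between classes. Mei1 and Mei4 ranged from 0.0253 to 0.119 and from 0.102 to 0.143 RPKM in growing oocytes. Spo11 had 4, 4, 0, 3, 0, 0, 0, 0 and 0 reads in the 9 libraries, in order of size. Stra8 had no read in any of them, and a count of 0 allows up to 3 reads in a library.

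Strand exchange is driven by DMC1 with the helper pair HOP2 (Psmc3ip) and MND1, and needs MEIOB, SPATA22 and TEX15. The HOP2 and MND1 proteins act as 1 complex, yet the RNAs parted. Psmc3ip had 7.65 and 6.73 RPKM at 10–30 μm, 8.06 and 7.40 at 40–45 μm, 8.13 and 7.85 at 50–55 μm, 6.92 and 7.96 at 60–65 μm and 5.60 in GV oocytes (log2 change 0.05 ± 0.13; limma adjusted p = 0.724). Mnd1 went from 14.5 and 12.1 RPKM at 10–30 μm through 9.25 and 8.67 at 40–45 μm and 6.40 and 6.14 at 50–55 μm to 5.14 and 6.08 at 60–65 μm and 4.77 in GV oocytes. Mnd1 fell 2.33-fold (limma adjusted p = 0.000144), so that it lay above Psmc3ip in the smallest oocytes and below it in the largest. The end of Psmc3ip overlaps Mlx by 385 bp on the opposite strand, and Mlx fell by 0.61 on the log2 scale. Tex15 started among the highest members, at 21.8 and 18.1 RPKM at 10–30 μm, then had 9.18 and 8.57 at 40–45 μm, 7.57 and 7.21 at 50–55 μm, 5.23 and 5.89 at 60–65 μm and 5.28 in GV oocytes, a fall of 3.52-fold (limma adjusted p = 1.85e-05). Dmc1 itself stayed under the minimum, with 0.179 and 0.118 RPKM at 10–30 μm, 0.231 and 0.112 at 40–45 μm, 0.225 and 0.204 at 50–55 μm, and in the largest class 0.334 and 0.293. Meiob and Spata22 were at most 0.188 and 0.0554 RPKM.

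In the crossover group, 1 member passed the test as higher. MSH4 and MSH5 form a clamp on joint molecules, MLH3 acts at crossover sites, RNF212 selects sites for crossing over, and TEX11 links synapsis to crossing over. Msh4 was at 3.0 and 2.74 RPKM at 10–30 μm, 3.45 and 3.42 at 40–45 μm, 4.95 and 4.25 at 50–55 μm, 4.52 and 5.08 at 60–65 μm and 5.42 in GV oocytes. It rose by 0.73 ± 0.12 on the log2 scale, or 1.66-fold (limma adjusted p = 0.0011). Its partner Msh5 was under the minimum, with 0.199 and 0.241 RPKM at 10–30 μm and 0.0895 and 0.0910 at 60–65 μm. Tex11 fell 6.05-fold (limma adjusted p = 1.09e-05), with 2.60 and 2.02 RPKM at 10–30 μm, 0.793 and 0.656 at 40–45 μm, 0.310 and 0.332 at 50–55 μm, 0.304 and 0.281 at 60–65 μm and 0.420 in GV oocytes. The fall of Mlh3 was small, 1.25-fold (limma adjusted p = 0.0295), from 1.07 and 1.16 RPKM at 10–30 μm to 0.821 and 0.757 at 40–45 μm, 0.860 and 0.854 at 50–55 μm, 0.878 and 0.864 at 60–65 μm and 0.798 in GV oocytes. It lost the call in 8 of 19 other settings, among them leaving out either 10–30 μm, either 50–55 μm or either 60–65 μm library (adjusted p up to 0.116). Rnf212 had 1.85 and 1.66 RPKM at 10–30 μm, 1.13 and 1.45 at 40–45 μm, 1.18 and 1.35 at 50–55 μm, 0.859 and 1.25 at 60–65 μm and 0.981 in GV oocytes. Its fall of 1.62-fold (limma adjusted p = 0.01) was lost without the 10–30 μm A or the 60–65 μm A library, with adjusted p up to 0.0839.

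Whole reads could be recovered from the RPKM, which allowed the members under the minimum to be tested too. With edgeR on these reads, a test added after the data were seen, 27 members were tested, of which 18 were lower and 2 higher at 60–65 than at 10–30 μm (31.3% and 30.0% of 14890 genes). The members this added among the lower were Spata22 (7.99-fold, edgeR adjusted p = 0.000571), Syce3 (3.51-fold, edgeR adjusted p = 0.00552), Mei1 (3.16-fold, edgeR adjusted p = 0.00177), Msh5 (2.44-fold, edgeR adjusted p = 0.000575) and Meiob (2.05-fold, edgeR adjusted p = 0.0117). Most of these rested on few reads, given here at 10–30 and then at 60–65 μm. Spata22 had 19 and 26, then 3 and 3, and Syce3 20 and 27, then 3 and 12. Mei1 had 49 and 53, then 11 and 26, and Meiob 28 and 51, then 16 and 26. Msh5 had more, 109 and 212, then 52 and 91. Dmc1, the recombinase, was added among the higher, 2.15-fold (edgeR adjusted p = 0.0225). Its reads were few: 39 and 41 at 10–30 μm, against 77 and 116 at 60–65 μm. Mei4 was not called (log2 change 0.14; edgeR adjusted p = 0.627). The 4 members whose 60–65 μm libraries both lay above the 10–30 μm ones were Msh4, Trip13, Sycp2 and Dmc1.

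Most of the falls had begun by 40–45 μm. From 10–30 to 40–45 μm, 11 of 20 members tested were lower and 0 higher, where 9.84% of genes were lower and 13.2% higher. Without scaling of the libraries the higher genes made up 41.7% of all calls in this step, against 57.2% with it. The lower members were Syce1, Tex11, Sycp1, Tex15, Smc1b, Hormad1, Sycp3, Prdm9, Mnd1, Stag3 and Mlh3, from 2.78-fold for Tex11 and 2.70-fold for Syce1 down to 1.31-fold for Mlh3. Without the 10–30 μm A library 5 were lower. From 40–45 to 50–55 μm, 6 were lower (Sycp3, Tex11, Smc1b, Hormad1, Syce1 and Prdm9, between 1.67-fold and 2.09-fold) and 0 higher, where 3.10% and 5.65% of genes were. The higher genes made up 64.6% of calls here and 52.4% with upper-quartile scaling. This count rests on single libraries: it was 0 without the 40–45 μm A, the 40–45 μm B or the 50–55 μm A library, and 3 without the 50–55 μm B library. From 50–55 to 60–65 μm limma called 0 members and 0 genes, 0.0% in either direction. With libraries paired by letter as a block it called 152 genes higher and 78 lower, 1 of the lower a member. With a pseudocount of 1 it called 8 genes higher and 0 members. Without either change, 5 members and 1429 genes had an unadjusted p under 0.05, and edgeR on reads also called 0. The fitted changes of Smc1b and Syce1 in this last step were still -0.80 ± 0.15 and -0.74 ± 0.18.

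**Figure D2:**
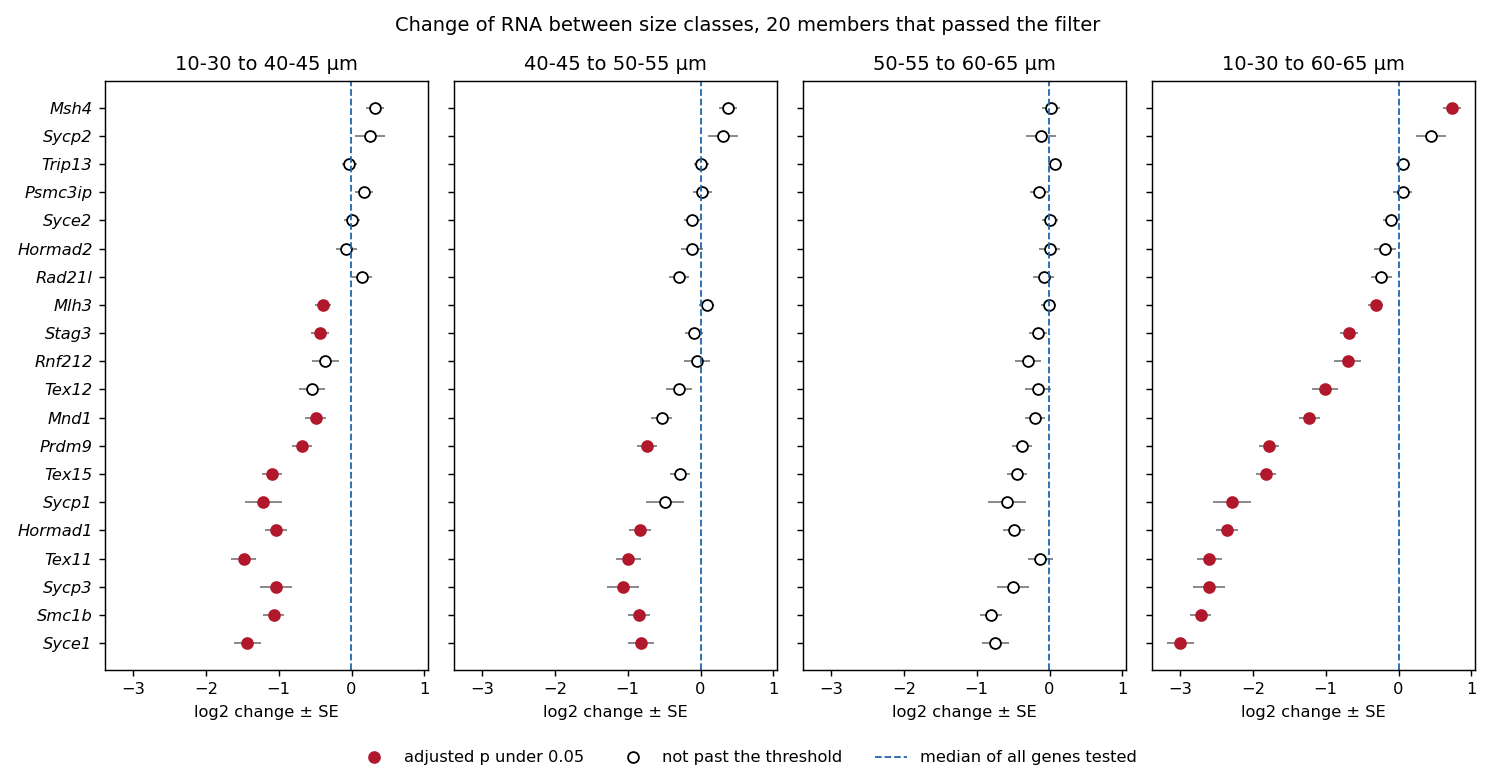
Fitted log2 change ± SE (limma) of the 20 members that passed the minimum, between consecutive size classes and from 10–30 to 60–65 μm; filled points have an adjusted p under 0.05 and the dashed line is the median of all genes tested. Over the whole range 13 members lie left of the line with filled points and Msh4 alone lies right of it with one.

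GV oocytes continued from the largest growing class with few exceptions. The 1 GV column was the lowest of the 9 values for 16 members and the highest for 3, Mei4, Dmc1 and Msh4. Of the 20278 genes detected, it was the lowest for 20.8% and the highest for 24.5%. On log2 of RPKM plus 0.1, Sycp1 and Sycp3 were more than 1.5-fold below the mean of the 60–65 μm libraries and Mei4 and Dmc1 more than 1.5-fold above it. Among the genes that passed the minimum, 2.80% were as far below and 1.83% as far above. Mei4 and Dmc1 did not pass it, so of the 20 members that did, 2 were as far below and 0 as far above. With the 60–65 μm B library alone as the base 5 members were that far below, with the A library alone 0, and Mei4 and Dmc1 were above in both cases. With a pseudocount of 1 none of the 30 passed the fold. Tex11 was at 0.420 RPKM in GV oocytes against 0.304 and 0.281 at 60–65 μm.

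Genes that work beside the members are set against the 31.8% of all genes tested that were higher and the 31.5% that were lower. Of the cohesin and general chromosome partners, 14 were tested, 6 rose and 2 fell from 10–30 to 60–65 μm. Esco1 and Esco2, which acetylate cohesin, rose by 0.66 ± 0.19 and 0.53 ± 0.18 on the log2 scale, Wapl (Wapal), which releases cohesin, by 0.49 ± 0.11 and Sgol2, a protector of centromeric cohesin, by 0.47 ± 0.10, whereas Smc1a, the general counterpart of Smc1b, fell by 0.44 ± 0.14. The mean levels of Smc1b and Smc1a were 30.4 and 4.93 RPKM at 10–30 μm and 4.56 and 3.56 at 60–65 μm. Among 21 tested of 30 other meiotic prophase genes, 6 rose and 10 fell. The chaperone-like Fkbp6 fell by 2.06 ± 0.15, Gm4969, the gene of the STRA8 partner MEIOSIN, by 1.99 ± 0.28, the histone reader Zcwpw1, which binds the marks that PRDM9 makes, by 1.45 ± 0.11, M1ap (D6Mm5e) by 1.24 ± 0.15, Ccnb1ip1, the gene of the crossover factor HEI10, by 1.04 ± 0.21, and Rec114 (2410076I21Rik), a break factor with MEI4, by 0.82 ± 0.11. In the same list Mus81, a nuclease that resolves joint molecules, rose by 0.81 ± 0.09 and Shoc1 (AI481877) by 0.80 ± 0.13. For 21 general recombination partners, 3 rose and 9 fell. Rad51ap2 rose by 0.81 ± 0.16, and the kinases Atm and Atr, which sense broken DNA, fell by 1.36 ± 0.11 and 0.78 ± 0.12. Of the 8 checkpoint genes, 2 rose and 4 fell, among them Chek2 by 1.06 ± 0.14, Rad9b by 1.008 ± 0.11 and Trp63, whose product removes oocytes with broken DNA, by 0.95 ± 0.16. All changes in this paragraph passed limma at an adjusted p under 0.05, and the lists were chosen with earlier results of these data known.

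All 14 oocyte markers were detected. The summed level of 14 oocyte markers was 3567 and 3717 RPKM at 10–30 μm and 3087 and 3225 at 60–65 μm and 2862 in GV oocytes, and 7 of the 14 were called lower and 3 higher over this range, Sohlh1 going from 49.6 and 45.0 to 1.17 and 1.74 RPKM and Figla from 52.7 and 45.0 to 11.6 and 12.6. The sum of 13 granulosa and theca markers was 2.18 to 2.56 RPKM at 10–30 μm, 3.56 to 3.63 at 40–45 μm, 5.80 to 6.24 at 50–55 μm, 7.78 to 8.11 at 60–65 μm and 10.1 in GV oocytes, and all 3 that could be tested were called higher. Within it Nr5a2 held 4.81 and 4.60 RPKM at 60–65 μm, and Cyp19a1 went from 0.161 and 0.159 RPKM at 10–30 μm to 1.25 and 1.04 at 60–65 μm and 2.53 in GV oocytes. Kitl went from 0.192 and 0.14 to 0.495 and 0.409 RPKM and was at 0.907 in GV oocytes, while Amh and Foxl2 were at most 0.281 and 0.0642 RPKM in any library. For 9 stroma, vessel and blood markers the sum was 2.59 to 3.40 RPKM at 10–30 μm and 4.94 to 5.57 at 60–65 μm, with 1 called higher and 2 lower of the 3 tested. Pecam1 went from 0.567 and 0.531 to 4.70 and 4.19 RPKM, and Col1a1 from 1.63 and 1.16 to 0.4 and 0.241. None of the markers found was at 0 in all 9 libraries. The part of other cells in the members' changes was not tested. RNA-seq libraries held 20564376 to 48673523 recovered reads, RRBS libraries 30000113 to 57319823 calls (a median of 5 to 20 per cytosine read) and PBAT 99039028 calls (a median of 2).

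Start regions of the members were nearly free of methylation in RRBS at every size. The value is the mean over CpG cytosines with at least 5 reads within 500 bp of the start, where at least 3 were read. Of 30 members, 19 were measured in at least 1 RRBS library and 18 in all 6. In libraries A and B the median over members was 0.56% and 0.13% in the 40–45 μm class, 0.38% and 0.21% in the 50–55 μm class, and 0.74% and 0.35% in the 60–65 μm class, where the medians of all gene starts lay between 0.28% and 0.60%. No member reached 10% in the A and B libraries of 40–45 μm, where 0.45% and 0.814% of all gene starts did, or of 60–65 μm, where 2.36% and 2.5% did. At 50–55 μm 0 did in A, against 1.57% of gene starts, and 1 in B, against 2.65%. Thus 18 of 19 stayed below it in every RRBS library that measured them. Prdm9 was not measured in 50–55 μm B. The next highest values were 6.71% for Sycp3 and 6.64% for Hormad1, both in the 50–55 μm B library. For a single value in 2 libraries against 2, the smallest exact permutation p is 0.333.

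The exception was Sycp1 in 1 library. Its start region had 0 of 88 and 0 of 132 calls methylated in the 40–45 μm libraries, which allows up to 3.41% and 2.27%, then 1.0% in the A and 29.4% in the B library of 50–55 μm, and 5.1% and 2.6% in those of 60–65 μm, over 11 to 24 cytosines. In the printed window the 50–55 μm B library had 205 methylated of 322 calls at 6 cytosines, whereas the A library had 3 of 168 at 12, and the 60–65 μm libraries 19 of 141 and 2 of 40. PBAT had 11 of 268 there. The high value thus stood in 1 library of a class and was not found in its replicate or in the larger oocytes. With no minimum of methylation, 18 members were tested for a gain from 40–45 to 60–65 μm and 0 were called, where 79 of 12108 gene starts, or 0.652%, were (edgeR). At an unadjusted p under 0.05 there were 0 of the 18 members and 454 gene starts. How large a gain this test could find was not simulated, so the 0 calls do not show that no member gained. Of the 289 gene starts with a mean of at least 5% in RRBS, a choice to which a gain itself contributes, 64.0% were called, and 71 or 83 of 289 without one of the 60–65 μm libraries. Sycp1 was among these 289 through its 50–55 μm B value, so its test there is not read.

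PBAT covered 27 of the 30 start regions and gave somewhat higher values. The median over members was 4.65%, against 3.56% over 19277 gene starts, and 4 members reached 10%, where 14.2% of gene starts did. Msh4 had 21.9% over 34 cytosines, with 50 methylated of 250 calls (20%, Wilson 95% interval 15.5% to 25.4%). Hormad2 had 21.9% over 8 cytosines, with 10 of 47 calls (12% to 34.9%), Spata22 16.1% over 16, with 18 of 106 (11% to 25.3%), and Tex15 13.8% over 5, with 5 of 36 (6.1% to 28.7%). In RRBS at 60–65 μm the start of Msh4 had 3.10% in A and 0.96% in B, that of Hormad2 0.55% and 0.16%, and that of Tex15 0.61% and 0.45%, and Spata22 was not measured. At the low end, Mlh3 had 0 of 153 calls methylated over 22 cytosines, which allows up to 1.96%, and Msh5 had 1 of 262. Trip13, with the most CpGs in its window, had 14 of 1045 calls methylated, or 1.3% (0.8% to 2.2%). Rad21l, Rnf212 and Tex11 were not measured. The table places the start of Rnf212 25579 bp from that of RefSeq. Intervals and limits cover counting error only.

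**Figure D3:**
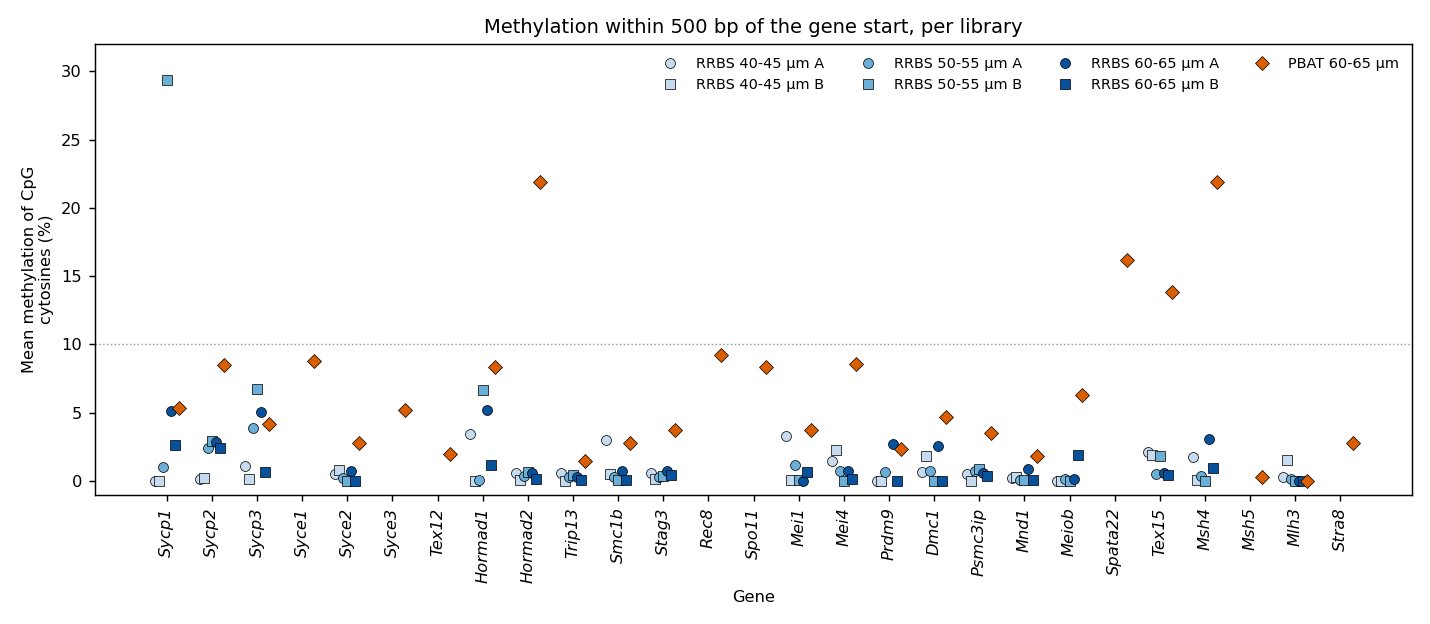
Mean methylation (%) of CpG cytosines within 500 bp of the gene start, for the 27 members measured in at least 1 library; each point is 1 library (RRBS circles A and squares B, PBAT diamonds) and the dotted line marks 10%. RRBS values lie under 10% except Sycp1 in the 50–55 μm B library at 29.4%, and PBAT values of Msh4, Hormad2, Spata22 and Tex15 lie above it.

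PBAT and RRBS could be compared at the same cytosines of 60–65 μm oocytes. Over the members' start regions PBAT read 5.92% and RRBS A 2.50% at 160 shared cytosines, and PBAT 7.51% and RRBS B 0.92% at 121. For Msh4 the 8 shared cytosines had 25.0% in PBAT and 3.79% and 1.56% in RRBS A and B. Hormad2 had no shared cytosine. Over all cytosines of the genome that both assays read, PBAT had 10.6% and RRBS A 7.01%, and PBAT 11.2% and RRBS B 7.88%. The difference between the assays was not tested.

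Letters of 3 known motif types were searched in the windows on both strands: CNCCTCAG, a STRA8-type site, CACGTG, the E-box, and TTCCCGCC, an E2F-type site. None of the motifs contains another. With 1 window for each of 26 members, the one nearest to the table's start, the STRA8-type letters were in 5 (Hormad2, Msh5, Prdm9, Sycp1 and Tex12), where 7.94% of all windows held them. E-boxes were in 6 (Hormad1, Rnf212, Stag3, Sycp1, Sycp3 and Tex12), where 7.15% of all windows held one, and the E2F-type letters in 6 (Hormad1, Msh5, Prdm9, Rnf212, Spata22 and Tex12), where 2.19% did. The members' windows were also richer in CpG, as given above, with a median GC content of 60.3% against 52.7%, and the part of this in the counts was not tested. In the printed windows, the STRA8-type letters begin at base 142 of Hormad2 and base 283 of Sycp1, and the E-box at base 157 of Sycp1. Members with these letters include both ones without a called change in RNA, such as Hormad2, and ones that fell, such as Prdm9 and Tex12. A match of letters does not show that a factor bound there.

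Gene bodies, unlike the starts, carried very unequal methylation at 60–65 μm. In PBAT, 24 members had at least 10 cytosines read from 2000 bp after the start to the end of the gene and a gene length of at least 4000 bp, with a median of 36.3% against 29.7% for 17080 genes. Over the whole gene, start included, the median of the same 24 members was 19.7%. With at least 10 cytosines over the whole gene and no minimum length, it was 16.5% for 29 members and 15.7% for 20916 genes. The highest were Stag3 at 74.6% (306 of 417 calls), Trip13 at 67.7% (199 of 298), Mlh3 at 65.7% (529 of 796), Hormad2 at 56.2% (561 of 1005), Mnd1 at 55.5% (308 of 519) and Msh4 at 53.2% (384 of 785). These 6 of 24 passed 50%, as did 29.8% of all genes. The lowest were Stra8 at 4.09% (36 of 790), Mei1 at 6.00% (122 of 2233), Syce3 at 7.04% (16 of 240), Msh5 at 7.33% (57 of 809) and Syce1 at 7.68% (14 of 174). These 5 lay at or below 10%, as did 27.6% of all genes.

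Median body methylation was lowest in the group of members with the least RNA, as in genes at large, and was not highest at the top level. By mean level at 60–65 μm, the 7 members under 0.1 RPKM had a median of 7.33%, where the median of all genes at that level was 8.39%. The 9 members between 0.1 and 1 RPKM had 39.1% against 33.9%, and the 7 between 1 and 10 RPKM had 45.6% against 52.9%. Above 10 RPKM, Syce2, the 1 member there, had 35.8% (30 of 87 calls), and the median of all genes was 46.8%. The correlation of body methylation with RPKM at 60–65 μm was a Spearman's rho of 0.73 over 24 members and 0.65 over 17080 genes, and with RPKM at 10–30 μm 0.50 and 0.65. These describe genes of the same libraries, which share depth and are not independent replicates. Within this, Syce1 stood low: at 0.568 RPKM its body had 7.68%, while Hormad1, with 0.167 RPKM, had 29.3% (30 of 99 calls) and Stag3, with 0.674 RPKM, 74.6%. Tex11, which is on the X chromosome, had 17.9% (216 of 1206). Smc1b and Sycp1, with mean levels of 30.4 and 9.85 RPKM in the smallest oocytes, had 42.3% and 45.6%.

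**Figure D4:**
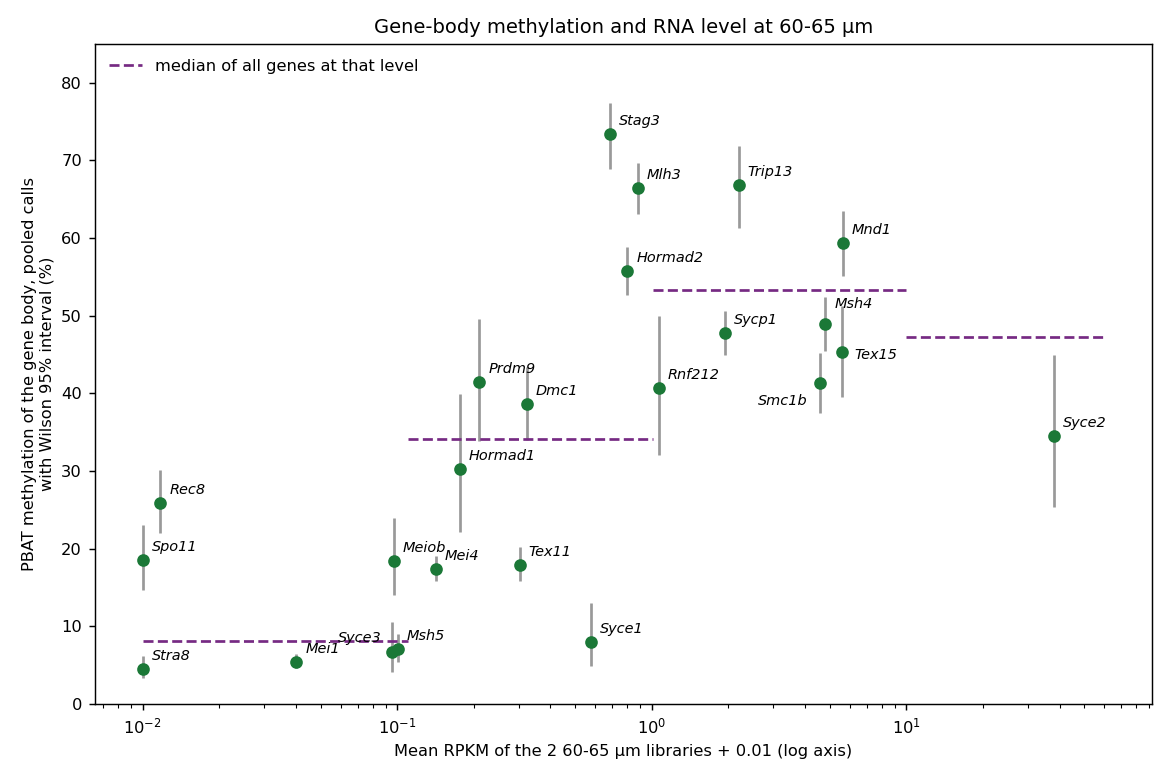
PBAT methylation of the gene body (pooled calls, %, with Wilson 95% intervals) against the mean RPKM of the 60–65 μm libraries plus 0.01 (log axis) for 24 members; dashed lines give the median of all genes in 4 ranges of RPKM. Under 0.1 RPKM, Rec8, Meiob and Spo11 lie above the range's median and the other members below it. Stag3, Trip13 and Mlh3 lie highest. Between 0.1 and 1 RPKM, Syce1, Mei4, Tex11 and Hormad1 lie below the range's median.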

How the data were processed

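Mouse oocytes were measured in 16 samples. Per the study's methods, the authors trimmed RNA-seq reads with Trim Galore 0.2.8 and aligned them with TopHat2 2.0.9, and RRBS and PBAT reads with Bismark 0.14.0 and 0.10.0 after Trim Galore, RRBS with version 0.3.5, all to GRCm38. The deposited expression values are RPKM per gene. The libraries were strand-specific, and the methods name SeqMonk for the analysis of the data. Whether the counting behind the RPKM used strand is not given in the sources used here, so overlapping genes on opposite strands may share reads. The deposited methylation files hold counts of methylated and unmethylated calls per CpG cytosine and the percent methylated. The members and lists were chosen with earlier results of these data known.

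RPKM was scaled by a trimmed mean over the 10518 genes of at least 0.5 RPKM in 2 of 8 libraries (factors 0.951 to 1.06), put on log2(RPKM + 0.1), which understates changes of low genes, and tested with limma 3.58.1 (trended variance, 4 size classes in 1 fit, Benjamini-Hochberg over all genes). Fold changes are on that scale. The 1 GV column entered no test. Whole reads were recovered, within 0.02 of a read, for 99.6% of 20278 genes above 0. On these, edgeR 4.0.16 (quasi-likelihood) called 4466 genes higher and 4658 lower from 10–30 to 60–65 μm. Gains of methylation at gene starts were tested with edgeR on methylated and unmethylated calls. Depth limits single values: cytosines had few reads in PBAT, and intervals are Wilson 95%. On simulated data the RNA test called 88 of 90 changes of 1 and 110 of 110 changes of 2 on the log2 scale among 10518 genes, with 7 false calls, and the methylation test 58 of 72 among 289 gene starts, with 1 false call.

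Values in every library are given for members that passed the test or reached a mean of 1 RPKM in a class or in GV oocytes, and from the other lists the called genes with the largest changes, at most 8 each, by their log2 change. Members with at least 10% at the start in PBAT or at 60–65 μm in RRBS are given in full. Coordinates and promoter sequences are from RefSeq on GRCm38.p6. Scaling, pseudocount, filter, coverage, window and left-out libraries were varied.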

Additional observations from a re-analysis of the deposited data

Results flagged for a closer look

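In the GV column, which enters no test, 3 members lay above all 8 libraries of growing oocytes. Mei4 was at 0.379 RPKM (345 reads), against 0.102 to 0.143 RPKM in growing oocytes. Dmc1 was at 0.552 RPKM (240 reads), against 0.112 to 0.334. Msh4 was at 5.42 RPKM (3579 reads), against 2.74 to 5.08. There is 1 GV column, so these differences have no replicate check.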

How the results depend on the processing

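From 10–30 to 60–65 μm, 13 members were lower, and 11 to 13 with any 1 library left out. Of these, 11 kept the call in all 19 alternatives, the exceptions being Mlh3 and Rnf212, and Msh4 kept it too. The count of higher members was 1, and 2 with edgeR on recovered reads, with a minimum of 0.1 RPKM, with no minimum and with only the 2 classes compared in the fit (1 to 2 with 1 library left out, 2 without the 40–45 μm A or B library). Sycp2 was the added member in the fit of 2 classes and without either 40–45 μm library. From 10–30 to 40–45 μm the count of 11 lower members became 5 to 10 with 1 library left out, 5 without 10–30 μm A. From 40–45 to 50–55 μm the 6 lower members became 2 with no minimum and 0 to 7 with 1 library left out. In the last step the 0 lower members became 1 with a replicate block, which pairs libraries by letter. Deviations of same-lettered libraries correlated by 0.60, 0.59 and 0.67 among the 3 smaller classes, and by -0.23, -0.03 and 0.11 between these, in order of size, and the 60–65 μm class. Since not every pair exceeded 0.1, and nothing in the labels ties the letters to a shared source, they were not taken to pair the libraries. The block gave 13 lower and 1 higher member over the whole range, and 12 and 7 lower in the first and second steps.

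In GV oocytes the 2 members lower and 2 higher became 0 and 0 with a pseudocount of 1. The lower ones were 0 to 5 with 1 of the 60–65 μm libraries left out, and the higher ones 2. The PBAT median of start regions, 4.65%, was 4.04% with at least 10 reads and 3.99% within 250 bp. The median of bodies, 36.3%, was 15.8% over the whole gene, where 28 members were measured, and 19.7% over the whole gene for the same 24. The RRBS median of start regions at 60–65 μm, 0.53%, was 0.35% to 0.74% with 1 library left out. Of the 289 gene starts with a mean of at least 5%, 185 gained methylation, 158 with the replicate block, and 71 to 192 with 1 library left out (83 without 60–65 μm A, 71 without B). With no minimum of the mean, 79 of 12108 gene starts did. The causes were not tested. Scaling over all genes, edgeR on reads and both GV alternatives were chosen after seeing the data.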
